A study of Mus musculus with 12 samples.

Results

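Neighbouring R-loop peaks of opposite strand in HEPA1-6 cells are described here. In an R-loop, RNA base-pairs with its template DNA while the second DNA strand stays single. From the deposited HEPA1-6 peak list, sorted by position, every pair of adjacent intervals on chromosomes 1 to 19 was taken that was separated by at most 3000 bp and carried one + and one - strand. The rule gave 1247 pairs, of 9964 adjacent pairs within that distance with a strand on both sides. A pair was called divergent where the - peak came first (523 pairs) and convergent where the + peak came first (724 pairs). The pairs used 2328 of the 27273 peaks with a strand on these chromosomes (8.54%), because 166 peaks belonged to a pair on either side. The members were chosen by the positions and strands of the HEPA1-6 peaks, so their number and their strands are a description. Gene content, scores, widths and the liver list were not used.

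The study mapped R-loops by immunoprecipitation with S9.6, an antibody against RNA-DNA hybrids, in HEPA1-6, a mouse hepatoma line, and in liver of C57/Bl6 mice, in work on editing with adeno-associated virus. Each source had 2 immunoprecipitates, 2 immunoprecipitates treated with RNase H1 (an enzyme that digests the RNA of a hybrid) and 2 inputs, 12 libraries in all. All are labelled WT and untreated, with hepatocyte as the cell type; animal age is not among the labels. The data are 1 peak list per source from merged libraries, so no difference below has a replicate check and no test between sources was possible. Shares carry 95% Wilson intervals. These take in counting error alone, and peaks close together share reads and genes. The depth of the libraries is unknown. Of 9 hepatocyte markers checked, 4 (Alb, Apoa2, Trf and Fah) held a liver peak and 3 a HEPA1-6 peak, and none of the 3 endothelial, 3 cholangiocyte and 2 erythroid markers did in either list. Of 4 macrophage markers 2 did in each list, of 3 stellate cell markers 1 (Dcn), and of 3 fetal and hepatoma markers 1 (Afp); Cd68 and Afp lay at an opposite-strand pair. Among all protein-coding genes of chromosomes 1 to 19, 8658 of 20665 had a stranded HEPA1-6 peak, and the liver share was not counted. The markers are few and a gene without a peak may still be transcribed, so these counts do not check the labels.

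A hybrid forms behind RNA polymerase, so its RNA has the strand of the transcript. At a bidirectional promoter, genes that point away from each other start close together, and at tail-to-tail genes transcripts run towards each other and can overlap. Antisense transcription is also known within genes, above all near their starts. How a strand was given to each peak is not given in the sources used here. The sequenced material was sonicated DNA, per the labels' protocols. Of 17350 HEPA1-6 peaks that lay over exactly 1 gene of listed strand, 16211 (93.4%, 93.1 to 93.8%) carried the strand of that gene, and the liver share was 90.6% (89.9 to 91.3%).

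The promoters of the top divergent gene pairs are shown first, because they show the start sites that the highest-scoring pairs over separate genes are built around. Among divergent pairs over separate genes, the pair with the highest value of its lower score lay between Mus81, which encodes a structure-specific DNA endonuclease, and Cfl1, which encodes the actin-severing protein cofilin 1. Next came H4c12 with H2bc15, and H2ac19 with H2ac18, which are replication-dependent histone genes. Each sequence runs 5′ to 3′ on the gene's own strand, from 250 bases before to 50 bases after the start (RefSeq, GRCm38.p6), with CpG dinucleotides in capitals. The windows are chr19:5488330-5488629 (Mus81, - strand), chr19:5490205-5490504 (Cfl1, + strand), chr13:21750504-21750803 (H4c12, - strand), chr13:21753826-21754125 (H2bc15, + strand), chr3:96240325-96240624 (H2ac19, - strand) and chr3:96245247-96245546 (H2ac18, + strand).
Mus81: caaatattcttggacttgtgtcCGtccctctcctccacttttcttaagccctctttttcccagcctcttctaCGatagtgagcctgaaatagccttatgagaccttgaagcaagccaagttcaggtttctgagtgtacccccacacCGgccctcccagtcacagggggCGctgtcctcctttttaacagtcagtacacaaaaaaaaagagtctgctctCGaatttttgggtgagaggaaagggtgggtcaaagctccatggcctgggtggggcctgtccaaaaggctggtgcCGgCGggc
Cfl1: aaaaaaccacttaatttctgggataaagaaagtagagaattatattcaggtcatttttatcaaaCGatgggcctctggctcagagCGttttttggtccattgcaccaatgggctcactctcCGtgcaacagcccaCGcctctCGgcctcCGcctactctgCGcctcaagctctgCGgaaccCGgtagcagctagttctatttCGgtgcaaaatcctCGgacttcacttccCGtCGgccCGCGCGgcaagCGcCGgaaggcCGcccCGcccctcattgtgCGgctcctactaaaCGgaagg
H4c12: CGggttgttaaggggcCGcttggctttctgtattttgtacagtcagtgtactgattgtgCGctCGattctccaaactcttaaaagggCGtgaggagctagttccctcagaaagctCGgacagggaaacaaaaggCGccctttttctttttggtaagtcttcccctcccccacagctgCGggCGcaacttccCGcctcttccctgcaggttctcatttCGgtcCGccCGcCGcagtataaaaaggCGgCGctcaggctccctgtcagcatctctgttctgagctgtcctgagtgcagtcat
H2bc15: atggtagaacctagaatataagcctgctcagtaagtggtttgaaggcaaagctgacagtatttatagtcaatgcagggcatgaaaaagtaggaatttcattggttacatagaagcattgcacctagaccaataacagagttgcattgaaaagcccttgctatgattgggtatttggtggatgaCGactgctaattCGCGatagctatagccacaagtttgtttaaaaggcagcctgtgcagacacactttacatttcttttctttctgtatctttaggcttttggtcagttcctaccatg
H2ac19: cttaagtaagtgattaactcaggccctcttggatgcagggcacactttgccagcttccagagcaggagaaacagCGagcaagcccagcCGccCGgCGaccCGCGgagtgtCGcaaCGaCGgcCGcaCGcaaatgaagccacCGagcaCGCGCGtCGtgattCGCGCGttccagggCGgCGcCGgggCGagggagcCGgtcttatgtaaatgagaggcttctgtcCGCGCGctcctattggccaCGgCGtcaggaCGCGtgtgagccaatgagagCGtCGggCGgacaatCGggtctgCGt
H2ac18: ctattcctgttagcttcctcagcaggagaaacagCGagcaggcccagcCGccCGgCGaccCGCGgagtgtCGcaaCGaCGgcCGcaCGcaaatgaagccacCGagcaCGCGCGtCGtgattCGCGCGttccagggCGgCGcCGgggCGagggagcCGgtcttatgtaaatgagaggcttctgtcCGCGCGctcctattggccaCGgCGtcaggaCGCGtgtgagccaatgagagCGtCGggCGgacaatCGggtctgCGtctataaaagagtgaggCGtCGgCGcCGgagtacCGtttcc

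CpG density differed between the genes at Mus81/Cfl1 and at H4c12/H2bc15. The Cfl1 window held 22 CpG and an observed over expected CpG ratio of 1.003, the Mus81 window 7 and 0.342. The H4c12 window held 16 CpG and that of H2bc15 held 3. The windows of H2ac19 and H2ac18, with 36 and 41 CpG, are near-copies: shifted by 40 bases, 249 of 260 bases are identical. Reads from such copies may not be separable, so the peaks at this pair may not be independent. None of these is a shared promoter, since the 5′ ends lay 2065 bp (Mus81/Cfl1), 3522 bp (H4c12/H2bc15) and 5122 bp (H2ac19/H2ac18) apart. The start of Cfl1 lay in the gap between the peaks, while the other 5 starts lay under a peak of the pair.

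Over all 465 annotated starts that lay between the outer edges of a divergent pair, the median GC content of the promoter window was 63.0% and the median CpG ratio 0.832. The 4607 starts under any stranded HEPA1-6 peak had medians of 63.0% and 0.821, and all 31396 starts of chromosomes 1 to 19 had 53.0% and 0.389. Median GC skew, the excess of G over C on the gene's strand divided by their sum, was 0.0056 at divergent pairs and 0.0064 under any stranded peak. The run GGGG was found on at least 1 strand in 97.4% of divergent windows (95.5 to 98.5%), 96.7% of windows under a stranded peak and 86.9% of all windows. In each of these 4 measures the divergent windows lay close to those of starts under any peak. Starts in convergent pairs (376) had a median GC content of 61.0% and a CpG ratio of 0.757.

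Opposite-strand pairs made up 12.5% of adjacent pairs within 3000 bp (11.9 to 13.2%). The share changed little with distance: it was 13.1% for gaps up to 1000 bp, 12.3% from 1000 to 2000 bp, 12.7% from 2000 to 3000 bp, 13.1% from 3000 to 5000 bp and 13.5% from 5000 to 10000 bp. Between 10000 and 50000 bp it was 24.2% (23.1 to 25.4%). The smallest gap was 899 bp in both classes, and same-strand neighbours had the same minimum. Median gaps were 1476 bp in divergent, 1440 bp in convergent and 1454 bp in same-strand pairs. At the limit of the rule, the last divergent pair inside had a gap of 2996 bp and the first outside 3001 bp; for convergent pairs these were 2992 and 3002 bp. By chromosome, the opposite-strand share ran from 8.33% (9 of 108 pairs on chromosome 12) to 20.4% (23 of 113 on chromosome 14).

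Peaks of the pairs had a higher median width than stranded peaks at large. The median width was 1688.5 bp in divergent pairs (interquartile range 780.75 to 3499.75 bp) and 1817.5 bp in convergent pairs (824.75 to 4240 bp), against 1118 bp over all stranded peaks and 1228 bp in same-strand pairs. The authors' score, a whole number of 10 or more whose scale is not stated, had a median of 24 in both opposite-strand classes and 21 in same-strand pairs. Within a pair the higher score was 1.56 times the lower at the median in divergent pairs and 1.58 times in convergent pairs. The upper quartiles were 2.33 and 2.31 times, and the highest values 21.6 and 18.5 times.

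The pairs were then set against annotated genes. RefSeq gene bodies came from the GRCm38.p6 table, and a gene's strand was taken from the promoter table, which lists 25748 of the 47042 genes on these chromosomes and none on chromosome 18. A gene absent from the promoter table is called unlisted here. In 141 divergent pairs (27.0%, 23.3 to 30.9%) and 238 convergent pairs (32.9%, 29.5 to 36.4%), each side lay over a gene of its own strand. In 216 divergent pairs (41.3%, 37.2 to 45.6%) and 220 convergent pairs (30.4%, 27.1 to 33.8%), only the peak on one side had such a gene, and the other lay solely over genes of the opposite strand. Sides over opposite-strand genes alone made up 25% of divergent sides and 16.6% of convergent sides, against 2.07% of sides in same-strand pairs. Where peaks of opposite strand lie over a single gene, one of them must run against it, so this excess follows from how the pairs were chosen. The remaining pairs had a side over an unlisted gene or no gene, or both sides against their genes.

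**Figure D1:**
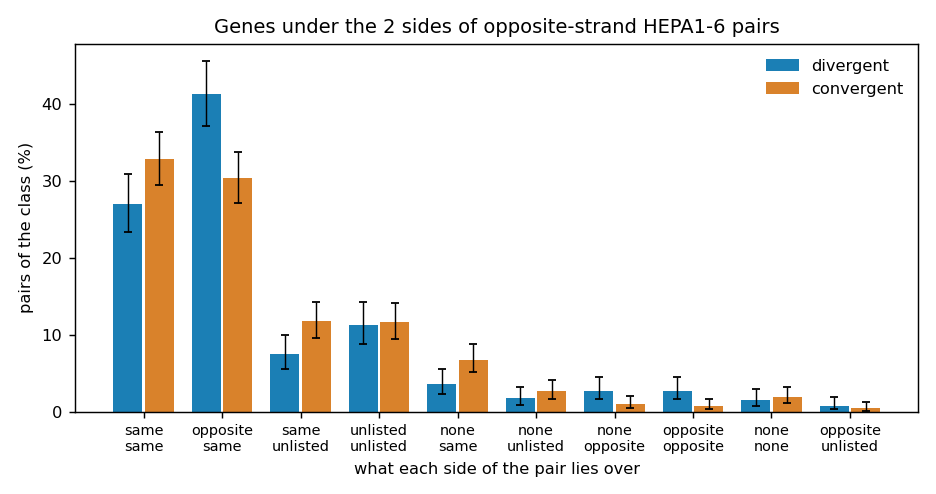
Share of divergent (523) and convergent (724) pairs by what their sides lie over: a gene of the peak's own strand (same), genes of the opposite strand only (opposite), a gene whose strand is not in the promoter table (unlisted) or no gene (none). Error bars are 95% Wilson intervals. The tallest bars are pairs with a same-strand gene on each side and pairs with a same-strand gene on one side and an opposite-strand gene on the other.

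A gene was shared by both peaks in 80.9% of divergent pairs (77.3 to 84%) and 75.7% of convergent pairs (72.4 to 78.7%), against 88.8% of same-strand pairs. The peaks lay over entirely different genes in 50 divergent pairs (9.56%, 7.33 to 12.4%), 87 convergent pairs (12%, 9.85 to 14.6%) and 3.25% of same-strand pairs. An annotated gene start lay between the outer edges in 45.1% of divergent pairs (40.9 to 49.4%), 30.5% of convergent pairs (27.3 to 34%) and 18.5% of same-strand pairs, which spanned less DNA (median 4757 bp, against 5877 and 6515 bp). In the gap itself a start was present in only 6.69% of divergent and 4.83% of convergent pairs.

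Among the 141 divergent pairs with a gene of the matching strand on each side, the 5′ ends of the genes lay within 1000 bp of each other in 87 (61.7%, 53.5 to 69.3%). These are head-to-head genes. Their pair of starts seldom fell between the peaks. In 72 of the 87 (82.8%, 73.5 to 89.3%) both 5′ ends lay under the same peak, and in 11 both lay in the gap. The peak over both starts had the higher score in 53 of 72 pairs, with a median score of 41.5 and width of 4099 bp, against 23.5 and 2096 bp for its partner, which lay further along one of the genes. A liver peak overlapped the peak over the starts in 60 of 72 pairs (83.3%, 73.1 to 90.2%) and its partner in 37 (51.4%, 40.1 to 62.6%).

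Hspd1 and Hspe1 on chromosome 1, whose products form the mitochondrial chaperonin and which share a bidirectional promoter, had both starts under one peak, but here the partner had the higher score. The - peak (chr1:55078056-55080628, score 176) lay in Hspd1 and the + peak (chr1:55082920-55089868, score 36) ran over both starts and Hspe1. Liver peaks with scores of 81 and 31 lay at these positions, on the same strands. Serp1 and Eif2a on chromosome 3 had 5′ ends that overlapped by 64 bp, HEPA1-6 scores of 60 and 49, and liver peaks on the same strands with scores of 24 and 22. Osgep and Apex1 on chromosome 14, a tRNA-modifying enzyme and the main endonuclease of abasic sites, had HEPA1-6 scores of 22 and 19 and liver scores of 22 and 20, again with both strands kept. All 3 pairs had the same divergent strands in both sources, but Serp1/Eif2a and Osgep/Apex1 were named because their liver strands were kept. Of 58 divergent pairs with a matching gene and a liver peak on each side, 17 (29.3%) kept both strands.

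In the 11 divergent pairs with both 5′ ends in the gap, peak scores ran from 12 to 87. These pairs included Kctd10/Ube3b (22 and 73), Arfip2/Timm10b (30 and 34), Ncstn/Copa (18 and 46), Recql/Golt1b (31 and 18), Exosc8/Alg5 (12 and 13) and Ears2/Ubfd1 (14 and 87). Recql encodes a RecQ helicase, Exosc8 a subunit of the RNA exosome, Ncstn a subunit of gamma-secretase and Copa a coat protein of Golgi vesicles. Only Arfip2/Timm10b among the 11 had a liver peak on the - side, and there the liver strand was - on both sides.

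The highest-scoring divergent pair over separate genes was Mus81/Cfl1 (chr19:5479111-5489567, score 106, and chr19:5491133-5499130, score 182). Liver peaks overlapped both of its sides (scores 40 and 79) but carried + and -, the reverse of HEPA1-6. Efemp2, a + gene, also lay under the left peak. H4c12/H2bc15 scored 84 and 72, and the liver peaks there were both +. H2ac15, a - gene, shared the right peak. H3c15 and H2ac19 faced H2ac18 and H3c14 with scores of 68 and 51, and the liver peaks (38 and 35) had the same strands. The next pairs with a matching gene on each side, or on one, were Ghrl/Sec13 (43 and 77), Gm4532/Zfp771 (133 and 37), Naa25/Tmem116 (35 and 64), C330013E15Rik/Smagp (34 and 36) and Emc6/Ctns (47 and 30). Zbtb7a/Pias4 (52 and 35) and Zfp710/Idh2 (59 and 31), completing the first 10, had no gene listed on the strand of either peak.

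Convergent pairs with a matching gene on each side were more often coding on both sides: 193 of 238 (81.1%, 75.6 to 85.6%) joined protein-coding genes, against 87 of 141 divergent pairs (61.7%, 53.5 to 69.3%). A lncRNA took part in 54 divergent pairs (38.3%, 30.7 to 46.5%) and 45 convergent pairs (18.9%, 14.4 to 24.4%). The 3′ ends faced each other within 1000 bp in 107 convergent pairs (45.0%, 38.8 to 51.3%), and the annotated bodies overlapped in 117 of the 238. Both 3′ ends again lay mostly under the same peak, in 86 of 107 pairs (80.4%, 71.9 to 86.8%). That peak had a median width of 7784 bp and score of 43.5, against 1237.5 bp and 23 for its partner, and the higher score in 69 of 86 pairs. A liver peak overlapped it in 73 of 86 pairs (84.9%, 75.8 to 90.9%) and the partner in 29 (33.7%, 24.6 to 44.2%). In both classes, then, close facing ends lay mostly under a single peak of the pair; this concerns only pairs with ends within 1000 bp. A wider peak is more likely to cover both ends and to meet a liver peak. The differences in width and liver overlap may therefore follow in part from how that peak was picked, which was not tested.

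Vps54 and Ugp2 on chromosome 11, a subunit of a tethering complex for Golgi vesicles and the enzyme that makes UDP-glucose, form a plain tail-to-tail example. Their 3′ ends overlap by 8 bp in the gap, the + peak (chr11:21316290-21320267) scored 46 and the - peak (chr11:21321786-21324572) scored 49. Liver peaks with scores of 23 and 24 lay there on the same strands. Pcbd1/Sgpl1 on chromosome 10 scored 48 and 48, with liver scores of 29 and 20 and both strands kept. Sgpl1 encodes sphingosine phosphate lyase. Mrpl53/Wbp1 (56 and 45) likewise had liver peaks (49 and 44) on the same strands. Fam210b/Aurka on chromosome 2, at the gene for the mitotic kinase Aurora A, had a gap of 900 bp and scores of 28 and 15, and a single liver peak (score 16, - strand) spanned both sides. Phf12/Dhrs13os (50 and 48) kept the + strand on the left in liver, while the liver peak on the right was +.

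Among convergent pairs over separate genes, the top pair was Arid2/Scaf11 on chromosome 15 (chr15:96402812-96411440, score 115, and chr15:96413609-96423021, score 139). Arid2 encodes a subunit of a SWI/SNF remodelling complex and Scaf11 a splicing-associated protein. The liver peaks (76 and 90) were + and -, as in HEPA1-6. Cyb5d1/Kdm6b scored 55 and 67 (Kdm6b demethylates lysine of histone H3), and both liver peaks were -. Tatdn2/Ghrl (94 and 43) shared the Ghrl peak with the divergent pair Ghrl/Sec13, and the liver peak there was +. The rest of the first 10 were Nisch/Tnnc1 (49 and 57), whose genes run on the strands opposite to the peaks, Serhl/Poldip3 (83 and 41) and Gm10914/Ubald1 (39 and 42). Strands therefore held in liver at some of the top pairs and not at others.

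**Figure D2:**
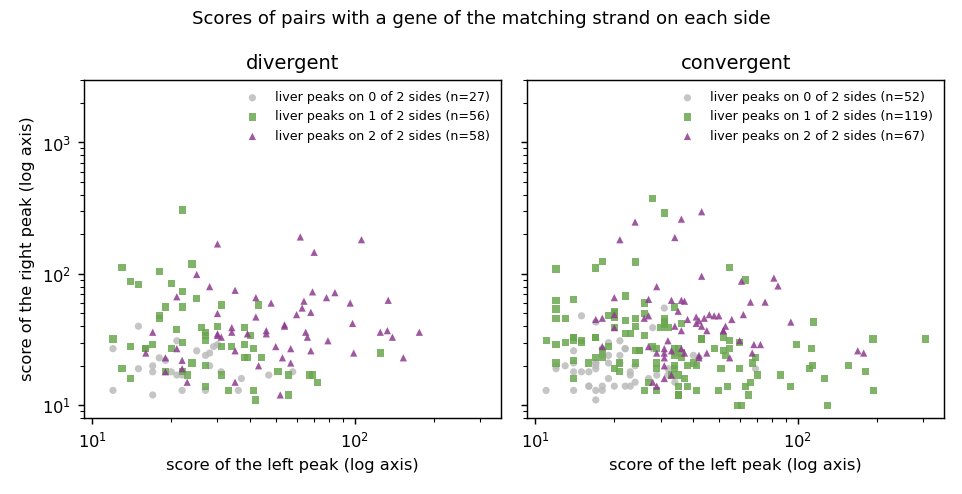
Authors' score of the left peak (x axis, log) against that of the right peak (y axis, log) for the 141 divergent and 238 convergent pairs with a gene of the matching strand on each side. Each point is a pair; symbols give the number of sides overlapped by a liver peak (27, 56 and 58 divergent and 52, 119 and 67 convergent pairs for 0, 1 and 2 sides). Pairs with no liver peak crowd at the low scores.

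Textbook gene pairs were examined next. They were listed from general knowledge as 15 head-to-head and 4 tail-to-tail pairs. All 15 head-to-head pairs had a HEPA1-6 peak at 1 or both genes, and 11 had a peak that overlapped both genes. Hspd1/Hspe1 and Surf1/Surf2 held an opposite-strand pair (2 of 15, 13.3%, 3.74 to 37.9%). Over all protein-coding genes, 8658 of 20665 had a stranded peak, and 18.5% of these lay at an opposite-strand pair. That background counts single genes and not gene pairs, so the textbook pairs cannot be called rich or poor in such pairs. At Surf1/Surf2 the - peak (score 139) also covered Med22 and the ribosomal protein gene Rpl7a, and the + peak (score 33) covered Surf2. At Atm/Npat (a DNA damage kinase and a regulator of histone genes) 3 peaks lay, with scores of 19 and 50 on - and 24 on +, but none formed a pair within 3000 bp. At Tk1/Afmid and Sars2/Mrps12 both peaks were +, and at Trmt2a/Ranbp1 a single + peak (48) covered both genes and formed a convergent pair with a - peak (27) in Dgcr8 across 899 bp. Of the tail-to-tail pairs only Thra/Nr1d1, a thyroid hormone receptor and a circadian repressor, held one, in the divergent order (18 and 23).

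Pairs inside a single gene formed the other large group. Requiring that both peaks touch the same gene of listed strand and no other gene left 164 divergent pairs in 162 genes and 180 convergent pairs in 176 genes. Nearly all were protein-coding (162 and 178 pairs). By construction the antisense peak lies on the 5′ side of the sense peak in a divergent pair and on the 3′ side in a convergent pair. The midpoint of the antisense peak was within 5 kb of the gene's 5′ boundary in 94 of 164 divergent pairs (57.3%, 49.7 to 64.6%). The upstream peak of same-strand pairs lying in a gene in the same way was that close in 20.1% of 4924 pairs (19 to 21.2%). In convergent pairs 109 of 180 antisense peaks (60.6%, 53.3 to 67.4%) lay within 5 kb of the 3′ boundary, against 23.3% (22.1 to 24.5%) of the downstream peaks of same-strand pairs. Genes of the same-strand pairs were longer, with a median of 49118.5 bp, against 27304.5 bp (divergent) and 27166 bp (convergent), which moves any position closer to a boundary in the shorter genes.

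**Figure D3:**
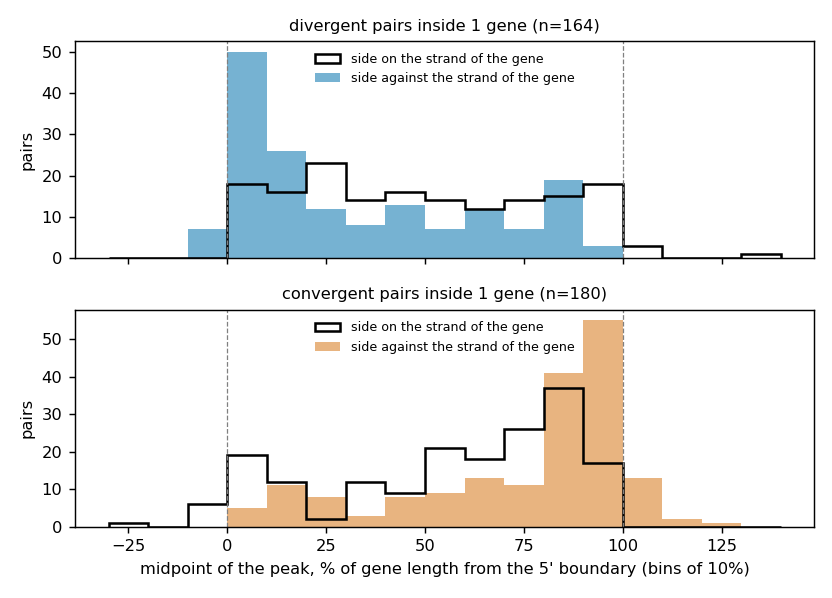
Midpoint of the sense peak (black outline) and the antisense peak (filled) along the gene, from the 5′ boundary (0%) to the 3′ boundary (100%), for 164 divergent and 180 convergent pairs inside a single gene; the y axis counts pairs, and midpoints may fall outside because a peak only has to overlap the gene. Antisense peaks gather at the 5′ end in divergent pairs (median 19.1%) and at the 3′ end in convergent pairs (median 85.7%).

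What the distance to other genes showed depended on the limit used. A gene of its own strand was within 5000 bp of the antisense peak in 68 divergent pairs (41.5%, 34.2 to 49.1%) and 96 convergent pairs (53.3%, 46.1 to 60.5%). From the sense peak of the same pairs, a gene of the strand opposite to it was that close in 31.7% and 28.9%, and from peaks of same-strand pairs in 6.94% (6.45 to 7.45%). The intervals of antisense and sense peaks overlapped in divergent pairs (sense 25.1 to 39.2%) and did not in convergent pairs (sense 22.8 to 35.9%). Within 20000 bp the shares were 62.2% (antisense) and 62.8% (sense) in divergent pairs, and 73.3% and 72.2% in convergent pairs. Median distances were 11232.5 bp (antisense) and 10471.5 bp (sense) in divergent pairs, and 3579 and 7899 bp in convergent pairs. By median distance the antisense side was thus closer in convergent pairs and not in divergent pairs. Within 1000 bp the shares were 11.0% (antisense, 7.06 to 16.7%) and 3.66% (sense, 1.69 to 7.75%) in divergent pairs. In convergent pairs they were 12.2% (8.21 to 17.8%) and 4.44% (2.27 to 8.52%). These intervals overlapped in both classes. At 1000 and 5000 bp the antisense share was the higher in both classes. Only genes of listed strand could be counted, so true distances may be shorter.

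Sense and antisense peaks of a gene were alike in size. Median scores were 21 (sense) and 20 (antisense) in divergent pairs and 20.5 and 22.5 in convergent pairs. The antisense peak had the higher score in 82 of 164 divergent pairs (50%, 42.4 to 57.6%) and 100 of 180 convergent pairs (55.6%, 48.3 to 62.6%). Median widths were 1085.5 and 1344.5 bp in divergent pairs, and 1316.5 and 1443 bp in convergent pairs. A liver peak overlapped 26.8% of sense and 34.8% of antisense peaks in divergent pairs, and 31.7% and 30% in convergent pairs, with overlapping intervals in both classes. The antisense peak was the wider in 93 of 164 divergent pairs (56.7%, 49.1 to 64.1%) and 95 of 180 convergent pairs (52.8%, 45.5 to 59.9%). For score and width, the intervals of these within-pair shares held 50%, so no gap was detectable at these numbers. Liver overlap was compared without the pairing of the sides, so a difference there may have been missed.

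The examples below have the highest lower score within their class, a rule chosen after the values were seen. In the + gene Ctnnb1, which encodes beta-catenin, the antisense peak (chr9:120932558-120936652, score 204) lay near the 5′ end, with its midpoint 1205 bp inside, and the sense peak (chr9:120937749-120942957, score 33) followed. A liver peak overlapped both, and at the antisense peak it was +, the strand of the gene. At Cnn3, for an actin-binding calponin, and Xylt2, the antisense peaks (39 and 61) also sat at the 5′ end and were on the gene's strand in liver. Dnttip2 (60 sense, 72 antisense) and Ppp4r3b (47 sense, 64 antisense) kept the antisense strand in liver. Convergent examples were Sec13 (84 sense, 77 antisense), Macroh2a1, the gene of the histone variant macroH2A1 (54 and 47), Skp2 (43 and 62), the thymine DNA glycosylase gene Tdg (48 and 41), Tma16 (39 and 58) and Pes1 (37 and 67). In liver the antisense strand was kept at Sec13, Macroh2a1 and Pes1 and was that of the gene at Skp2, Tdg and Tma16. At Macroh2a1 and Pes1 the liver peak over the sense side was itself antisense. The lncRNA Gm34777 (53 sense, 44 antisense) completed the 12 and kept its antisense strand.

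The liver list held 1 or both sides of about the same share of either class. A liver peak overlapped at least 1 side in 349 divergent pairs (66.7%, 62.6 to 70.6%) and 484 convergent pairs (66.9%, 63.3 to 70.2%). The background was 52.3% of 8717 same-strand pairs. Counted by side, a liver peak was present at 45.7% of divergent, 44.5% of convergent and 33.7% of same-strand sides. The share over all stranded HEPA1-6 peaks, counted singly, was 31.8%. Both sides had a liver peak in 129 divergent pairs (24.7%, 21.2 to 28.5%) and 160 convergent pairs (22.1%, 19.2 to 25.3%), against 15.2% of same-strand pairs. These shares count an overlap of 1 bp. With 50% of both peaks required, at least 1 side had a liver peak in 33.1% of divergent (29.2 to 37.2%), 29.3% of convergent (26.1 to 32.7%) and 24.2% of same-strand pairs (23.3 to 25.1%), and both sides in 6.31% (4.53 to 8.73%), 3.73% (2.58 to 5.37%) and 2.96% (2.62 to 3.34%). The intervals of convergent and same-strand pairs then overlapped for both sides. The same-strand value at this setting was added after the data were seen. At 1 bp, the liver list held neither side in 174 and 240 pairs. A single liver peak covered both sides in 7 divergent and 12 convergent pairs.

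Score and width moved with this difference, and their part in it was tested only by a split at the median score of 21. Among sides above it, a liver peak was present at 66.2% of divergent (62.4 to 69.9%), 66.2% of convergent (63.0 to 69.3%) and 56.4% of same-strand sides (55.4 to 57.5%). Among sides at or below it the shares were 16.6% (13.4 to 20.4%), 13.0% (10.5 to 16%) and 11.9% (11.2 to 12.6%). The intervals of convergent and same-strand sides overlapped in the lower part. Width was not held equal.

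**Figure D4:**
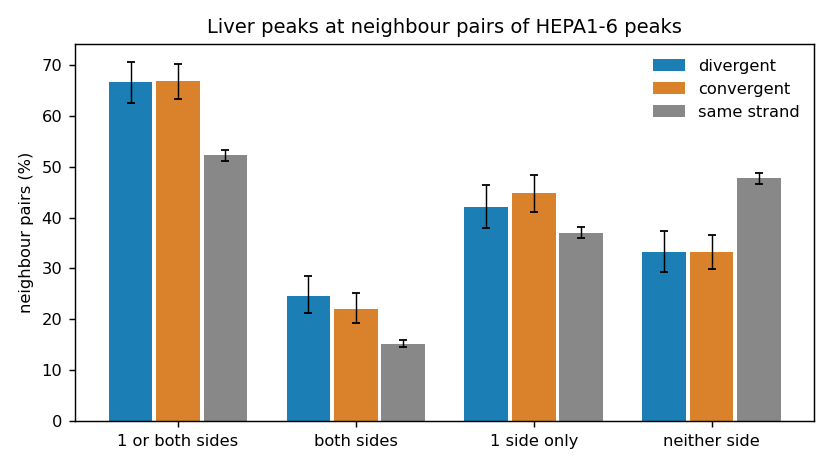
Share of divergent (523), convergent (724) and same-strand (8717) neighbour pairs of HEPA1-6 peaks with a liver peak on the sides named on the x axis; error bars are 95% Wilson intervals. Opposite-strand pairs stand at 66.7% and 66.9% for 1 or both sides and same-strand pairs at 52.3%.

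Sharing was higher where each side had a gene of its own strand. There, 80.9% of divergent (73.6 to 86.5%) and 78.2% of convergent pairs (72.5 to 82.9%) had a liver peak on at least 1 side, against 56.0% (49.4 to 62.5%) and 51.8% (45.2 to 58.3%) of pairs with an antisense side. Median lower scores were 22 and 20 against 17 and 18. Both sides were present in 41.1% of the divergent (33.4 to 49.4%) and 28.2% of the convergent gene pairs (22.8 to 34.2%).

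The highest-scoring pairs with no liver peak were, among divergent pairs, those at Gemin7 (33 and 38), Rnf43 (35 and 30) and Pofut2 (29 and 31), and among convergent pairs D17H6S53E/Apom (31 and 55), Nans/Trim14 (30 and 42) and Ift20/Tmem97 (28 and 39). Apom encodes an apolipoprotein of high-density lipoprotein and Rnf43 a ubiquitin ligase that restrains Wnt receptors. With liver peaks on both sides, the top divergent pairs were Mus81/Cfl1, Myadm (123 and 92) and H4c12/H2bc15, and the top convergent pairs were at Snrpe, for a core protein of spliceosomal snRNPs (142 and 224), Arid2/Scaf11 and Mroh2a/Hjurp (81 and 93). Hjurp encodes the chaperone that loads the centromeric histone CENP-A. At Myadm both liver peaks were +, the strand of the gene, at Snrpe both were -, and at Mroh2a/Hjurp they were - and +, the reverse of HEPA1-6.

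The opposite strands themselves were often not found in liver. Some sides lay under liver peaks of both strands, or of 1 strand and none: 45 of 478 divergent (9.41%, 7.11 to 12.4%), 83 of 644 convergent (12.9%, 10.5 to 15.7%) and 182 of 5880 same-strand sides with a liver peak (3.10%, 2.68 to 3.57%). At sides under liver peaks of a single strand, that strand equalled the HEPA1-6 strand in 258 of 433 divergent (59.6%, 54.9 to 64.1%) and 361 of 561 convergent sides (64.3%, 60.3 to 68.2%), against 5337 of 5684 same-strand sides (93.9%, 93.2 to 94.5%). The intervals of both opposite-strand classes lay below that of same-strand pairs. The pairs were chosen by their HEPA1-6 strands, the value compared here. A lower agreement can follow from that choice alone, and how much of it does was not tested.

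Both strands together were kept less widely, with the same limit from the choice by strand. Of pairs with a liver peak on both sides, each liver strand was as in HEPA1-6 in 40 of 129 divergent (31.0%, 23.7 to 39.4%) and 40 of 160 convergent pairs (25%, 18.9 to 32.2%), against 85.9% of 1325 same-strand pairs (83.9 to 87.7%). Leaving out pairs with mixed liver strands, the shares were 37.7% of 106 divergent (29.1 to 47.2%) and 31.7% of 126 convergent pairs (24.3 to 40.3%). The liver strands were equal on both sides in 57 and 72 of these pairs, which include those under a single liver peak, and reversed in 9 and 14. Pairs with a matching gene on each side kept both strands in 17 of 58 divergent (29.3%, 19.2 to 42.0%) and 20 of 67 convergent pairs (29.9%, 20.2 to 41.7%).

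In pairs inside a single gene the shares differed by side. The strand was the same in liver at 36 of 43 sense peaks (83.7%, 70.0 to 91.9%) and 23 of 55 antisense peaks (41.8%, 29.7 to 55.0%) of divergent pairs. In convergent pairs it was the same at 42 of 55 sense (76.4%, 63.7 to 85.6%) and 17 of 50 antisense peaks (34.0%, 22.4 to 47.8%). The intervals of sense and antisense peaks did not overlap in either class. Liver peaks over exactly 1 gene of listed strand carried its strand in 90.6%. A higher share at sense peaks can follow from that alone, and how much of it does was not tested. Antisense HEPA1-6 peaks outside these pairs were not compared. In both classes of these pairs together, 40 of 105 antisense peaks under single-strand liver peaks kept their strand (38.1%, 29.4 to 47.6%). The rest met a liver peak on the strand of the gene. In divergent pairs alone the interval included 50%. Because how strands were assigned is not given, a change of transcript and a change of assignment between the lists cannot be told apart.

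**Figure D5:**
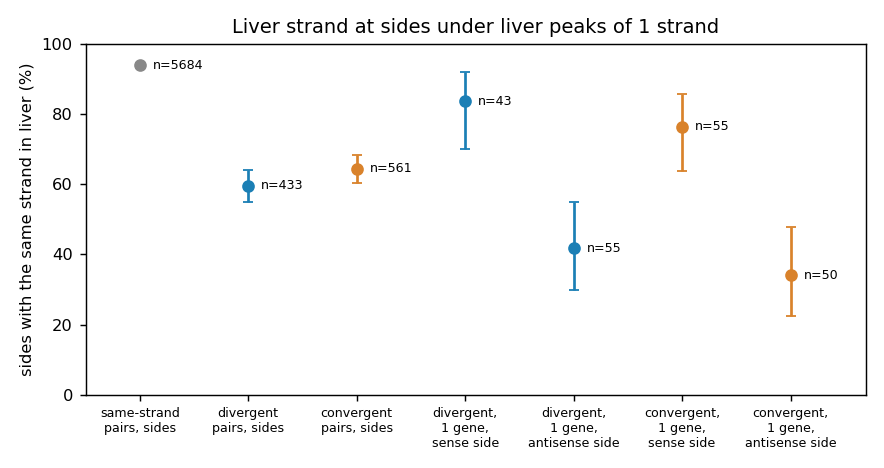
Share of HEPA1-6 sides, among those under liver peaks of a single strand, whose liver strand was the same (y axis), with 95% Wilson intervals and the number of sides. Divergent and convergent sides stand at 59.6% and 64.3%, antisense sides in a single gene stand at 41.8% and 34.0%, sense sides at 83.7% and 76.4%, and sides of same-strand pairs at 93.9%.

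The same rule applied to the liver list gave 221 divergent and 260 convergent pairs, 15% of its neighbour pairs with strands (13.8 to 16.3%). Of these, 27 (12.2%, 8.53 to 17.2%) and 23 (8.85%, 5.97 to 12.9%) lay side on side over a HEPA1-6 pair of the same class. The matching share for same-strand pairs of the liver list was not counted, so these shares cannot be called low or high. Map3k1/Gm15327 (62 and 191 in HEPA1-6, 36 and 77 in liver) and Dstn/Rrbp1 (61 and 88, then 22 and 39), named after their values were seen, had liver peaks on the same strands on each side.

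Gene groups from fixed lists were counted at the pairs. Of 8658 protein-coding genes with a stranded HEPA1-6 peak, 1601 (18.5%) lay under a peak of an opposite-strand pair. Replication-dependent and variant histone genes stood at 12 of 43 (27.9%, 16.7 to 42.7%), of which 10 were at divergent and 3 at convergent pairs, H2aj being at both. Over all protein-coding genes, 747 were at divergent and 1108 at convergent pairs. Several histone genes shared a pair, such as H3c15, H2ac19, H2ac18 and H3c14, so they do not count as separate cases. Mitochondrial ribosomal protein genes stood at 13 of 57 (22.8%, 13.8 to 35.2%), cytosolic ribosomal protein genes at 11 of 75 (14.7%, 8.39 to 24.4%) and repair and replication genes at 5 of 20 (25%, 11.2 to 46.9%). Each interval held the 18.5% of all such genes, so no list stood apart.

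Several members of these lists lay in runs of alternating strands. At Mrpl49 on chromosome 19, Syvn1/Mrpl49 was convergent (43 and 96), Mrpl49/Fau divergent (96 and 60) and Fau/Tm7sf2 convergent (60 and 19), so 4 adjacent peaks changed strand at each step. Fau encodes a precursor of a small-subunit ribosomal protein. Mrpl27 lay between Eme1, the partner of the Mus81 endonuclease, and Xylt2, in a divergent (125 and 36) and then a convergent pair (36 and 27). Mrpl43 lay in a convergent pair with Sema4g (20 and 39) and a divergent pair with Lzts2 (39 and 35). H2aj, a histone variant gene with a score of 306, formed a divergent pair with H4f16 (22) and a convergent pair with Wbp11 (32). Pairs that shared a peak with another pair made up 28.7% of divergent (25 to 32.7%) and 22.2% of convergent pairs (19.4 to 25.4%).

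Among repair and replication genes, Mcm7, a subunit of the replicative helicase, faced Ap4m1 across a gap of 900 bp (134 and 63), and both liver peaks there were +. Pcna, the sliding clamp of DNA polymerases, formed a divergent pair with Cds2 (72 and 15). Msh6 (19 and 35) and Mcm2 (41 and 31) held convergent pairs and Ercc1 a divergent pair (31 and 23) with a side against the gene. At ribosomal protein genes the scores of a pair ranged from far apart to close. Rps16 scored 407 beside a - peak of 22, Rpl12 lay under a peak of 380 beside one of 22, and Rpl10a under a peak of 291 beside one of 31. The scores were 134 and 54 at Rpl4, 55 and 31 at Rpl7l1, and 62 and 88 at Rps3a1. At Rpl12 and Rpl10a the high peak carried the strand opposite to the ribosomal protein gene, and other genes of that strand, Lrsam1 and Tead3, lay under it.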

How the data were processed

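The data are 1 deposited peak list for each source, giving position, name, score and strand. The names of the deposited peaks show that merged immunoprecipitates were compared with input. Per the submitters' processing notes, CASAVA 1.8.2, cutadapt, Bowtie2, bedtools, SAMtools and MACS2 were used on build mm10; thresholds, the libraries merged and the way a strand was given are not given in the sources used here. The score deposited by the authors has no stated scale and was used within a list only. Values of single libraries, RNase H1 treatment included, were not used here, and depth is unknown.

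Peaks were sorted and neighbours with a gap of 3000 bp or less were classed by strand. Overlap of 1 bp counted as shared. Genes came from the RefSeq GRCm38.p6 table and gene strands and promoters from a RefSeq promoter table (32851 entries; 54.7% of genes on chromosomes 1 to 19 matched). Wilson intervals used scipy 1.17.1 in Python 3.11.15. The functions were tested on simulated intervals. The members and lists were chosen with earlier results of these data known. Pairs were named by a rule: in each class, the 10 with the highest lower score over different genes, the 3 smallest gaps, the top 3 with a liver peak on neither and on both sides, and fixed textbook pairs and lists. Pairs with both gene ends in the gap, single-gene examples and further pairs with liver strands kept (Serp1/Eif2a, Osgep/Apex1) were chosen after their values were seen.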

Additional observations from a re-analysis of the deposited data

How the results depend on the processing

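Of 48 recomputed values for 11 results, 17 moved by more than the interval (shares) or 1.5 times (counts), and the other 31 did not. Keeping the 50% of peaks with the higher score gave 505 pairs, 218 divergent and 287 convergent, and a liver peak on at least 1 side of 85.3% of divergent and 87.5% of convergent pairs. Requiring 50% of both peaks for an overlap gave 33.1% and 29.3% for at least 1 side, and 6.31% and 3.73% for both. Requiring the same strand in liver gave 47.0% and 51.9% for at least 1 side, and 10.9% and 9.25% for both. Gene bodies with 1 kb on both sides lowered the share over different genes to 5.35% and 6.91%. In the gap alone a gene start was found in 6.69% and 4.83%. Dropping peaks without a strand changed no count. No paired analysis was possible because the data are 1 pooled list per source, and no replicate could be left out of a pooled list. The unknown depth limits every statement on a side without a liver peak.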
